A study of Mus musculus with 18 samples.

Results

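The mitosis and spindle genes are 50 genes whose products drive or carry out chromosome segregation and cell division, taken by name. Of these, 49 had a probe set that carries their symbol alone in the array annotation, out of 18193 genes measured in this way, and the mitotic cyclin Ccnb1 had none under that symbol in the table used here. Where a gene had several such probe sets (34 genes, 114 probe sets in all), the one with the highest mean over the 18 arrays stood for it. The rule that names the genes uses no measured value.

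Retinas of WT and Plk3-KO mice were compared at P0 (the day of birth), at P7 (postnatal day 7) and in the adult, with 3 arrays in each of the 6 groups. The Plk3-KO mice carry a deletion of the 5′ exons of Plk3 (polo-like kinase 3), which hold the active site, in the germline, and WT littermates were the controls. The line was in part Black Swiss and carried the Rd1 allele of retinal degeneration until crosses to C57Bl/6 mice removed it, and no drug treatment was given. RNA of whole retinas was amplified and hybridised to Affymetrix mouse genome arrays. The labels give the age of the adult mice only as adult, and embryonic arrays were not analysed here. The only probe set of Plk3 gave 7.70 ± 0.30 (SD, n = 3) in adult Plk3-KO retinas and 5.20 ± 1.13 in adult WT retinas, so that it does not show the loss of the gene. Per the study's text this probe set covers the 3′ end of the gene, outside the part targeted for deletion, and therefore checks nothing about the deletion. The study itself checked it by other means. Its qPCR of the targeted 5′ region was strongly lower in the mutant, and its in situ probes along Plk3 gave no signal there. The labels do not say that the arrays of a group came from separate animals, and p-values therefore measure only the spread between these arrays.

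Mitosis is driven by Cdk1 bound to its cyclins, which is opposed by the spindle assembly checkpoint until every kinetochore is held by microtubules. The anaphase-promoting complex then degrades securin and the cyclins, separase opens cohesin, and the midzone of the spindle directs cytokinesis. In the mouse retina the progenitor cells still divide at birth, divisions end first in the centre and later in the periphery during the first postnatal days, and the neurons and glia of the adult retina do not divide. In whole retina, fewer dividing cells and less RNA per cell cannot be told apart.

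Nearly all of these genes fell from P0 to P7 in both genotypes. Each value is a log2-transformed MAS5 signal as the authors normalised it, given to 1 decimal (a final 0 is dropped), and a difference of 1 on this scale is a 2-fold change. At P0 all 49 genes had a group mean above 7, the minimum used in the study's methods, and the gene medians were 11.30 in WT and 11.27 in Plk3-KO retinas. At P7 the mean was above 7 for 31 genes in WT and 28 in Plk3-KO retinas, and in the adult for 13 and 12. Changes between ages were tested with limma on all 45037 probe sets, and a gene was called at a Benjamini-Hochberg adjusted p under 0.05. From P0 to P7, 47 of 49 genes were called lower in WT retinas, where 4.31% of all probe sets were, and 47 of 49 in Plk3-KO retinas, where 4.74% were. They were the same 47 genes, and Bub3 and Kif22 were left. The P0 and P7 arrays did not overlap for 47 genes in WT retinas (17.7% of all probe sets) and for 49 in Plk3-KO retinas (16.9%). The median change was -3.83 in WT and -4.03 in Plk3-KO retinas, beside -0.17 and -0.13 over all probe sets, and no gene had a higher mean at P7 than at P0. With values under 7 raised to 7, the medians were -3.33 and -3.43, falls of at least 10.1-fold and 10.8-fold. The P7 mean was not above 7 for 18 genes in WT and 21 in Plk3-KO retinas. For these genes the measured size of the fall to P7 is not firm.

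**Figure D1:**
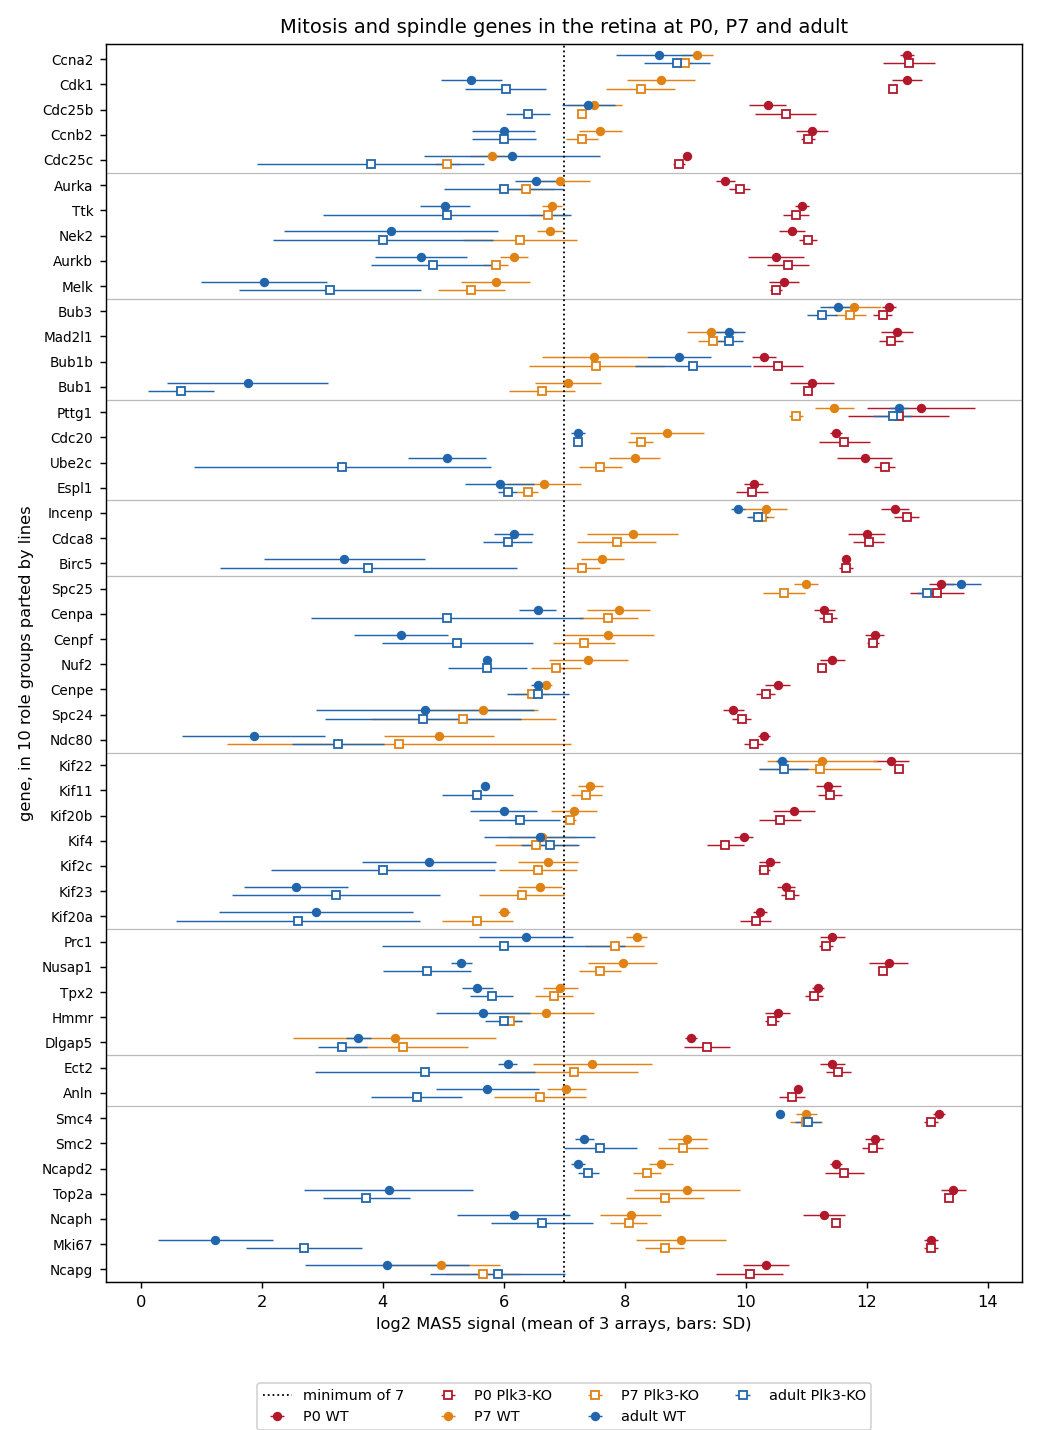
Mean log2 MAS5 signal (x axis, bars are the SD of 3 arrays) of each of the 49 genes (y axis, in 10 role groups parted by lines) at P0 (red), P7 (orange) and adult (blue), with filled circles for WT and open squares for Plk3-KO retinas. All P0 means lie above the dotted minimum of 7, and 13 WT and 12 Plk3-KO adult means do.

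Since the genes fell together, the promoters were read for letters that cell cycle promoters are known to share, the CCAAT box and the cell cycle homology region. The RefSeq table (GRCm38.p6) held a window of 250 bases before to 50 after the start for 41 of the 50 genes. CCAAT, on either strand (ATTGG on the other), stood in 73.2% of these 41 genes and in 41.1% of all 27025 genes with a window. The homology region was searched as TTTGAA, which reads as TTCAAA when written from the opposite strand. It was searched also as TTCGAA, which is its own reverse complement. Either form stood in 75.6% of the 41 genes and in 21.7% of all genes. Both kinds stood together in 65.9% of the 41 genes and 9.65% of all. Matches that share bases were each counted, and a match describes the sequence and says nothing about a bound factor.

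The 150 bases before the start are shown for 5 genes called lower in both genotypes at P7 and in the adult than at P0. They run 5′ to 3′ on the strand of the gene, with the letters searched in capitals. The sizes of these falls varied, and at P7 the WT difference of Cdc20 was -2.80, the same as that of Bub1b, shown further below. The genes were chosen after their values were seen.
Bub1 (chr2:127831860-127832009, minus strand): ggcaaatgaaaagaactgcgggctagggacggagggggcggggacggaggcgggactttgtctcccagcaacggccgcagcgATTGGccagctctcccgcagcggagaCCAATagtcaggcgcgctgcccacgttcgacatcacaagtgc
Top2a (chr11:99024190-99024339, minus strand): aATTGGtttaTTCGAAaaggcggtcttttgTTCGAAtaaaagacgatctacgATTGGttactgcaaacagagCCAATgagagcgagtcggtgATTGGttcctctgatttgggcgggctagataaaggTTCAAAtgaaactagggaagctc
Cdk1 (chr10:69352913-69353062, minus strand): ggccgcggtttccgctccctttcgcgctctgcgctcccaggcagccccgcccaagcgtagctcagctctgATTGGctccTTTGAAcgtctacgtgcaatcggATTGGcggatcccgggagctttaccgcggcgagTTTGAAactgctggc
Ccnb2 (chr9:70421555-70421704, minus strand): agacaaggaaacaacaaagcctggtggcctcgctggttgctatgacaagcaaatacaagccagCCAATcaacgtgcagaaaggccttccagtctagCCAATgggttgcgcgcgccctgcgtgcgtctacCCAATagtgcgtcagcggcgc
Cdc20 (chr4:118437344-118437493, minus strand): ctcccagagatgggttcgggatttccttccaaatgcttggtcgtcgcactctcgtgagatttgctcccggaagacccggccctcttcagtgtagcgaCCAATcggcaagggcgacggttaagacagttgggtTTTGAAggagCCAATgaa

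Bub3, whose change from P0 to P7 was not called, and Bub1b and Spc25, whose adult levels were near or above those at P7, are shown in the same way.
Bub3 (chr7:131560220-131560369, plus strand): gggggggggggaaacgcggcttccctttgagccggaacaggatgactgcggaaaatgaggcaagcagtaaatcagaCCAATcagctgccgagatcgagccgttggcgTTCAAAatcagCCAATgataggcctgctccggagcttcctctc
Bub1b (chr2:118598061-118598210, plus strand): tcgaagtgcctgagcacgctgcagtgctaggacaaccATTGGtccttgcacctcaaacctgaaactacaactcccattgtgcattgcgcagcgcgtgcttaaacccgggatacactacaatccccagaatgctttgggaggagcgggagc
Spc25 (chr2:69206214-69206363, minus strand): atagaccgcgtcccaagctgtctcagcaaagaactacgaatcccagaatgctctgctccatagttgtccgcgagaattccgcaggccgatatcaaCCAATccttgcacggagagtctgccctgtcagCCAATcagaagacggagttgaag
The letters were not confined to the genes shown first. Bub3 holds 2 CCAAT boxes and 1 homology region in its stretch, as does Cdc20, while the stretches of Bub1 and Ccnb2 hold CCAAT boxes alone. The stretches are shorter than the windows searched. In their windows Bub1, Ccnb2, Bub1b and Spc25 each hold a homology region that lies outside the stretch shown. The window of Pttg1, another gene of small change, held none of the letters searched, and neither did those of Melk and Nusap1, which fell by more than 4 on the log2 scale.

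The mitotic cyclins, Cdk1 and its activating phosphatases fell as a group, with 5 of 5 called lower at P7 in each genotype. Cdk1, the kinase that starts mitosis, stood at 12.9, 12.7 and 12.4 on the WT arrays at P0, at 8.5, 8.1 and 9.2 at P7 and at 6.0, 5.0 and 5.4 in the adult. On the Plk3-KO arrays it stood at 12.4, 12.4 and 12.5, then 8.1, 8.9 and 7.8, then 5.7, 5.6 and 6.8. The 3 ages did not overlap in either genotype. The difference at P7 was -4.07 ± 0.36 (SE, adjusted p = 1.1e-06, limma) in WT and -4.17 ± 0.36 (adjusted p = 7.4e-07, limma) in Plk3-KO retinas. With values under 7 raised to 7, Cdk1 was at least 50.8-fold lower in adult than in P0 WT retinas and at least 43.2-fold lower in Plk3-KO retinas.

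Ccna2 encodes cyclin A2, which acts in S phase and early mitosis. It stood at 12.6, 12.6 and 12.8 on the WT arrays at P0 and at 9.3, 8.9 and 9.4 at P7, and at 12.4, 12.5 and 13.2 and then 9.1, 9.0 and 8.9 in Plk3-KO retinas. Its differences at P7 were -3.47 in WT and -3.70 in Plk3-KO retinas, both called. Its adult values of 7.9, 8.5 and 9.3 in WT and 8.5, 8.6 and 9.5 in Plk3-KO retinas overlapped those at P7, and it was one of the 12 genes above 7 in adult retinas of both genotypes. Ccnb2, the other mitotic cyclin measured, had adult means of 6.00 in both genotypes. Cdc25b and Cdc25c, which remove inhibitory phosphates from Cdk1, had differences at P7 of -2.87 and -3.23 in WT retinas and of -3.37 and -3.83 in Plk3-KO retinas, all called. Each P7 value of Cdc25c lies under 7. Its falls are firm only as at least 4.09-fold in WT and 3.73-fold in Plk3-KO retinas.

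All 5 mitotic kinases apart from Cdk1 fell to P7 in both genotypes. Aurka, which matures the centrosomes and the spindle poles, stood at 9.5, 9.8 and 9.7 on the WT arrays at P0 and at 6.6, 6.7 and 7.5 at P7. In the mutant it stood at 9.7, 10 and 10 and then at 6.0, 6.9 and 6.2, and its adult values lay between 4.9 and 6.9 in the 6 arrays. It showed the smallest WT difference of the kinases, -2.73 ± 0.41 (SE).

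Ttk, the kinase that starts checkpoint signalling, stood at 11, 11 and 10.8 in WT retinas at P0 and at 6.7, 6.7 and 7.0 at P7. The Plk3-KO arrays gave 10.6, 10.9 and 11 and then 6.5, 7.1 and 6.6. Melk, a kinase of dividing progenitor cells, stood at 10.4, 10.9 and 10.6 in WT and 10.4, 10.5 and 10.6 in Plk3-KO retinas at P0, and at 5.7, 5.4 and 6.5 in WT and 5.1, 6.1 and 5.2 in Plk3-KO retinas at P7. Since each P7 value lies under 7, the measured differences of -4.77 and -5.03 are firm only as falls of at least 12.4-fold in WT and 11.3-fold in Plk3-KO retinas. Aurkb, the enzyme of the chromosomal passenger complex, had differences of -4.33 and -4.83, and Nek2, which parts the centrosomes, of -4.0 and -4.77, all called. No P7 value of either gene lies above 7. Firm falls are at least 11.3-fold in WT and 13.0-fold in Plk3-KO retinas for Aurkb, and 13.6-fold and 16.4-fold for Nek2.

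The 4 spindle checkpoint genes did not move alike, and 3 of them were called lower at P7 in each genotype. Bub1, a kinase at the kinetochore, was at least 17.1-fold lower in adult than in P0 WT retinas and at least 16.4-fold lower in Plk3-KO retinas, and its P7 means already lay near 7, so that the size of its second step is not firm. Bub3 and Mad2l1 kept adult values above 9, and Bub1b had a higher adult mean than at P7. Bub3, which binds the kinetochore scaffold and carries Bub1 and Bub1b to it, stood at 12.3, 12.5 and 12.3 on the WT arrays at P0, at 11.6, 11.5 and 12.3 at P7 and at 11.8, 11.6 and 11.2 in the adult. Plk3-KO retinas gave 12.1, 12.3 and 12.4, then 11.7, 12 and 11.5, then 11.5, 11.3 and 11. The ages at P0 and P7 overlapped in WT but not in Plk3-KO retinas. The difference from P0 to P7 was -0.57 ± 0.23 (SE, adjusted p = 0.14, limma) in WT and -0.53 ± 0.23 (adjusted p = 0.18, limma) in Plk3-KO retinas, the smallest of the 49. Without P7 WT array 3 the WT difference was -0.82 with an adjusted p = 0.022 in limma. Other settings called it in both genotypes. These were quantile normalisation (adjusted p = 0.0079 in WT and 0.015 in Plk3-KO retinas, limma) and array weights (adjusted p = 0.0010 and 0.012, limma). So did leaving out P7 WT 3, P7 Plk3-KO 2, adult WT 3 and adult Plk3-KO 3 (adjusted p = 0.0012 and 0.0053, limma). From P0 to the adult this probe set of Bub3 was lower, with differences of -0.83 in WT and -1.0 in Plk3-KO retinas, both called. Neither was called with each array centred on its median. The second probe set, above 7 at each age, did not fall, with differences of 0.43 (adjusted p = 0.22, limma) and 0.17 (adjusted p = 0.68, limma). The remaining probe sets had lower adult means in both genotypes, all under 7.

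Mad2l1, which encodes the inhibitor of the anaphase-promoting complex made at unattached kinetochores, stood at 12.8, 12.4 and 12.3 in WT retinas at P0 and at 9.5, 9.0 and 9.8 at P7. The adult WT arrays gave 10, 9.7 and 9.5. The mutant arrays gave 12.4, 12.2 and 12.6, then 9.5, 9.7 and 9.2, then 10, 9.6 and 9.6. Thus it differed by -3.07 in WT and by -2.93 in Plk3-KO retinas, both called, at the first step and differed by 0.30 and 0.27 at the second, which was not called.

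Bub1b, the BubR1 checkpoint protein, stood at 10.1, 10.3 and 10.5 in WT retinas at P0, at 7.0, 7.0 and 8.5 at P7 and at 9.3, 9.1 and 8.3 in the adult. The Plk3-KO arrays gave 10.2, 10.4 and 11, then 7.1, 8.8 and 6.7, then 10, 9.3 and 8.1. The P7 and adult arrays overlapped in both genotypes. The called difference at P7 was -2.80 in WT and -3.0 in Plk3-KO retinas, and the adult mean was higher than at P7 by 1.40 (adjusted p = 0.12, limma) and by 1.60 (adjusted p = 0.074, limma), not called. Without P7 Plk3-KO array 2, without P7 WT array 3 or without adult Plk3-KO array 3 the Plk3-KO difference was called. With array weights the differences were 1.95 (adjusted p = 0.00030, limma) in WT and 2.24 (adjusted p = 0.00073, limma) in Plk3-KO retinas, both called. Without the 4 arrays that stand apart over the whole array (P7 WT 3, P7 Plk3-KO 2, adult WT 3 and adult Plk3-KO 3) they were 2.20 (adjusted p = 7.7e-05, limma) and 2.75 (adjusted p = 2.1e-05, limma). On the second probe set of Bub1b the rise was 1.03 in WT (adjusted p = 0.33, limma), not called. In Plk3-KO retinas it was 2.33 (adjusted p = 0.022, limma), called. The third probe set, under 7 at each age, had lower adult than P7 means, not called.

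Cdc20, Ube2c and Espl1 act in the exit from mitosis and fell at the first step. Cdc20, the activator of the anaphase-promoting complex, stood at 11.4, 11.6 and 11.5 in WT retinas at P0, at 8.4, 8.3 and 9.4 at P7 and at 7.3, 7.3 and 7.1 in the adult. On the Plk3-KO arrays it stood at 11.5, 11.3 and 12.1, then 8.1, 8.5 and 8.2, then 7.2, 7.2 and 7.3. The 3 ages did not overlap in either genotype. Ube2c, the ubiquitin-conjugating enzyme of that complex, differed at P7 by -3.80 in WT and by -4.70 in Plk3-KO retinas, and Espl1, which encodes separase, by -3.47 and -3.70. Both P7 means of Espl1 lie under 7, and its falls are firm only as at least 8.38-fold and 8.57-fold.

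Pttg1 encodes securin, the inhibitor of separase, and was among the 3 smallest falls. It stood at 13.8, 12 and 12.9 in WT retinas at P0, at 11.1, 11.6 and 11.7 at P7 and at 12.7, 12.4 and 12.5 in the adult. In the mutant it stood at 12.8, 11.6 and 13.2, then 10.9, 10.9 and 10.7, then 12.3, 12.8 and 12.2. The adult values overlapped those at P0 and stood above those at P7 in both genotypes. The first step was -1.43 ± 0.39 (SE, adjusted p = 0.025, limma) in WT and -1.70 ± 0.39 (adjusted p = 0.0081, limma) in Plk3-KO retinas. With limma the WT call was lost without P0 array 1, P0 array 3, P7 array 1 or P7 array 2, and in Plk3-KO retinas without P0 array 3, with adjusted p-values from 0.052 to 0.15 in limma. With each array centred on its median neither was called (adjusted p = 0.18 and 0.086, limma), and in WT retinas the call was lost also with no trend, with values under 7 raised to 7 and with the groups of the contrast alone (adjusted p = 0.063, 0.053 and 0.069, limma). From P7 to the adult Pttg1 rose by 1.60 in Plk3-KO retinas (adjusted p = 0.016, limma), a call lost without P7 array 3 or adult array 2 and with centring (adjusted p = 0.062, limma), and the WT difference was 1.07 (adjusted p = 0.11, limma). That WT difference was called with array weights (1.20, adjusted p = 0.022, limma) and with all probe sets averaged (1.32, adjusted p = 0.030, limma). The other probe sets of Pttg1 had their lowest mean at P7 as well, in both genotypes.

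The chromosomal passenger subunits, which hold Aurkb at the inner centromere and the midzone, all fell to P7. Incenp, the scaffold, stood at 12.2, 12.6 and 12.6 in WT and 12.5, 12.6 and 12.9 in Plk3-KO retinas at P0, and at 10, 10.3 and 10.7 in WT and 10.2, 10.5 and 10.1 in Plk3-KO retinas at P7. Its adult values lay between 9.8 and 10.3 in the 6 arrays, and the second step was not called in either genotype. Cdca8, which encodes borealin, stood at 11.7, 12 and 12.3 in WT and 12, 11.8 and 12.3 in Plk3-KO retinas at P0. At P7 it stood at 7.8, 7.6 and 9.0 in WT and at 7.9, 8.5 and 7.2 in Plk3-KO retinas, and in the adult at 5.7 to 6.5 in the 6 arrays. Birc5, which encodes survivin, had differences at P7 of -4.03 in WT and -4.37 in Plk3-KO retinas.

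All 7 centromere and kinetochore genes were called lower at P7 in both genotypes. Ndc80, whose product binds microtubules at the outer kinetochore, stood at 10.3, 10.4 and 10.2 in WT and at 10, 10.3 and 10.1 in Plk3-KO retinas at P0. At P7 it stood at 4.1, 4.8 and 5.9 in WT and at 1.0, 6.2 and 5.6 in Plk3-KO retinas. Its measured differences of -5.37 and -5.87 were firm only as falls of at least 9.85-fold and 8.77-fold, since every P7 value was under 7. Cenpa, the histone H3 variant of the centromere, stood at 11.5, 11.2 and 11.2 in WT and 11.4, 11.2 and 11.5 in Plk3-KO retinas at P0 and at 7.6, 7.6 and 8.5 in WT and 7.5, 8.3 and 7.4 in Plk3-KO retinas at P7. Cenpe, Cenpf, Nuf2 and Spc24 were called lower at P7 as well, with differences of -4.40 to -3.83 in WT retinas. Each P7 value of Cenpe and Spc24 lies under 7. In WT retinas their falls are firm only as at least 11.6-fold and 6.96-fold.

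Spc25 encodes a subunit of the same complex as Ndc80. On its probe set of highest mean it stood at 13.3, 13.4 and 13 in WT retinas at P0, at 11, 10.8 and 11.2 at P7 and at 13.8, 13.7 and 13.2 in the adult. Plk3-KO retinas gave 12.7, 13.2 and 13.6, then 11, 10.6 and 10.3, then 12.9, 13.2 and 12.9. The P7 arrays lay below those of both other ages. It rose from P7 to the adult by 2.57 ± 0.24 (SE, adjusted p = 6.1e-06, limma) in WT and by 2.37 ± 0.24 (adjusted p = 1.0e-05, limma) in Plk3-KO retinas. Its second probe set gave 8.97, 6.40 and 7.47 in WT retinas and 8.87, 6.17 and 7.10 in Plk3-KO retinas at P0, P7 and adult, a difference from P7 to the adult of 1.07 (adjusted p = 0.064, limma) and 0.93 (adjusted p = 0.10, limma) that was not called. On that probe set the adult mean was called lower than at P0, with differences of -1.5 and -1.77, so that both probe sets had the lowest mean at P7 and differed in the adult level.

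Of the 7 kinesins, 6 were called lower at P7 in each genotype. Kif11, the motor that slides spindle poles apart, stood at 11.3, 11.6 and 11.2 in WT and 11.2, 11.6 and 11.4 in Plk3-KO retinas at P0, at 7.5, 7.2 and 7.6 in WT and 7.4, 7.6 and 7.1 in Plk3-KO retinas at P7, and at 4.9 to 6.0 in the 6 adult arrays. The ages did not overlap. Kif22, a chromosome-bound kinesin, stood at 12.4, 12.1 and 12.7 in WT and 12.6, 12.5 and 12.5 in Plk3-KO retinas at P0. At P7 it stood at 10.6, 10.9 and 12.3 in WT and at 10.7, 12.4 and 10.6 in Plk3-KO retinas. Its differences of -1.13 (adjusted p = 0.12, limma) and -1.30 (adjusted p = 0.065, limma) were not called. Without P7 WT array 3 the WT difference was -1.65 (adjusted p = 0.013, limma), and without P7 Plk3-KO array 2 the Plk3-KO difference was -1.88 (adjusted p = 0.0033, limma). Leaving out either array brought the difference of the other genotype past the threshold as well, at adjusted p = 0.036 in WT and 0.023 in Plk3-KO retinas with limma. Both other probe sets of Kif22 were called lower at P7 in each genotype, with differences of -2.33 to -1.80.

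The spindle microtubule proteins and the cytokinesis genes were all called lower at P7. Prc1, the bundler of midzone microtubules, stood at 11.2, 11.6 and 11.5 in WT and at 11.2, 11.4 and 11.4 in Plk3-KO retinas at P0, and at 8.1, 8.1 and 8.4 in WT and 7.6, 8.4 and 7.5 in Plk3-KO retinas at P7. Nusap1, which binds microtubules near chromatin, stood at 12.6, 12.5 and 12 in WT and at 12.3, 12.3 and 12.2 in Plk3-KO retinas at P0, and at 7.5, 7.8 and 8.6 in WT and 7.4, 8.0 and 7.4 in Plk3-KO retinas at P7. Dlgap5, which stabilises kinetochore fibres, stood at 9.2, 9.0 and 9.1 in WT and 9.1, 9.2 and 9.8 in Plk3-KO retinas at P0. At P7 it stood at 3.6, 2.9 and 6.1 in WT and at 3.1, 5.1 and 4.8 in Plk3-KO retinas, so that its measured differences of -4.9 and -5.03 were firm only as falls of at least 4.29-fold and 5.16-fold.

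Ect2 encodes the exchange factor that activates RhoA at the division plane. It stood at 11.5, 11.2 and 11.6 in WT and 11.6, 11.7 and 11.3 in Plk3-KO retinas at P0 and at 7.0, 6.8 and 8.6 in WT and 7.0, 8.3 and 6.2 in Plk3-KO retinas at P7. Anln encodes anillin, the scaffold of the contractile ring. It stood at 10.9, 10.9 and 10.8 in WT and 10.6, 11 and 10.7 in Plk3-KO retinas at P0 and at 6.9, 6.8 and 7.4 in WT and 6.5, 7.4 and 5.9 in Plk3-KO retinas at P7. Both genes fell, with differences of -3.97 and -3.83 in WT and -4.37 and -4.17 in Plk3-KO retinas.

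Genes of chromosome structure fell too, and Smc4 had adult means of 10.57 in WT and 11.03 in Plk3-KO retinas, well above 7. Smc4, a condensin ATPase, stood at 13.3, 13.2 and 13.1 in WT retinas at P0, at 10.9, 10.9 and 11.2 at P7 and at 10.6, 10.5 and 10.6 in the adult. The mutant arrays gave 13, 13 and 13.2, then 10.9, 11.3 and 10.8, then 11.2, 11.1 and 10.8. Its partner Smc2 stood at 12.3, 12.1 and 12 in WT and 12, 12 and 12.3 in Plk3-KO retinas at P0, at 8.9, 8.8 and 9.4 in WT and 9.1, 9.3 and 8.5 in Plk3-KO retinas at P7, and at 6.9 to 8.0 in the 6 adult arrays. The P7 and adult arrays of Smc4 overlapped in Plk3-KO but not in WT retinas, and those of Smc2 overlapped in neither.

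Top2a, the topoisomerase that untangles sister chromatids, had P0 means of 13.43 in WT and 13.37 in Plk3-KO retinas. It differed by -4.40 and -4.70 at P7, and fell by at least 86.4-fold and 82.5-fold to the adult. Mki67, which coats mitotic chromosomes and marks proliferating cells, had differences of -4.13 and -4.40 from P0 to P7 and of -7.70 and -5.97 from P7 to the adult, all called. Since its adult values of 0.3, 2.2 and 1.2 in WT and 2.2, 2.1 and 3.8 in Plk3-KO retinas lie under 7, only a fall of at least 67.0-fold is firm in either genotype.

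From P0 to the adult, 46 of 49 genes were called lower in WT retinas, beside 14.5% of all probe sets, and 46 of 49 in Plk3-KO retinas, beside 13.9%. The 46 were the same in both, and Bub1b, Pttg1 and Spc25 were left. Bub1b differed by -1.40 in each genotype (adjusted p = 0.063 and 0.066, limma). Both differences were called without P7 WT array 3 or P7 Plk3-KO array 2. The WT difference was called also without adult Plk3-KO array 3, and the Plk3-KO difference also without adult Plk3-KO array 1. On the second probe set of Bub1b the WT difference of -1.97 was called (adjusted p = 0.022, limma). The Plk3-KO difference of -1.13 there was not (adjusted p = 0.19, limma). The arrays of both ages did not overlap for 47 genes in WT (21.9% of all probe sets) and for 47 in Plk3-KO retinas (20.0%). The median change was -5.13 in WT and -5.33 in Plk3-KO retinas. With values under 7 raised to 7 the medians were -3.77 and -3.73, falls of at least 13.6-fold and 13.3-fold. The gap between the 3′ and 5′ actin controls was 1.0 to 1.30 on the P0 arrays and 1.60 to 2.70 on the adult arrays, and its part in these differences was not tested. Without the 4 arrays that stand apart, 47 genes were called lower in each genotype.

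The second step alone was smaller and less uniform. From P7 to the adult, 20 of 49 genes were called lower in WT retinas, beside 4.0% of all probe sets, and 24 of 49 in Plk3-KO retinas, beside 4.62%. The 20 genes were among the 24, and Anln, Cenpa, Ect2 and Kif2c were called in Plk3-KO retinas alone. These 4 calls do not show a difference between genotypes, which was tested separately and not called. The adult arrays lay below those at P7 for 31 genes in WT (9.67% of all probe sets) and 24 in Plk3-KO retinas (10.3%), and above them for 2 in WT (13.8%) and 2 in Plk3-KO retinas (12.5%), which were Spc25 and Pttg1. The median change was -1.40 in WT and -1.13 in Plk3-KO retinas, and 1 gene in WT (beside 4.11% of all probe sets) and 2 genes in Plk3-KO retinas (beside 4.27%) were called higher, Spc25 in both and Pttg1 in the mutant. Many of the values compared lie under 7. With these raised to 7, the count was 12 in WT and 6 in Plk3-KO retinas, and without P7 Plk3-KO array 2 the Plk3-KO count was 14.

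**Figure D2:**
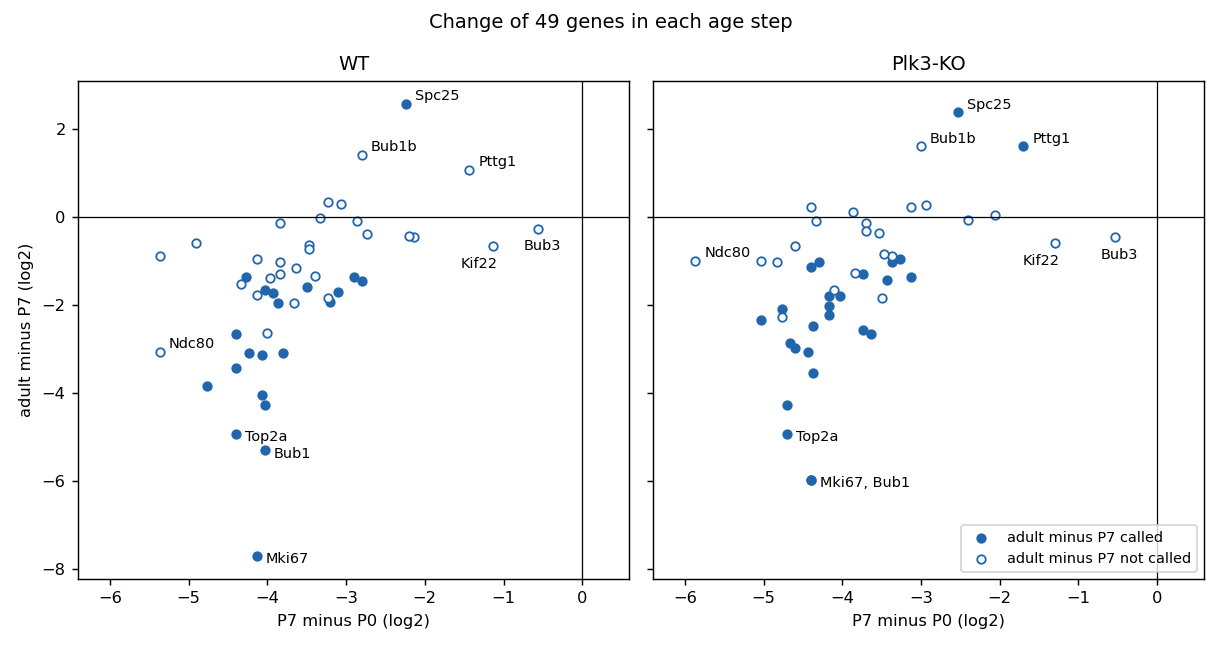
Difference from P0 to P7 (x axis, log2) against the difference from P7 to the adult (y axis, log2) of the 49 genes in WT (left) and Plk3-KO (right) retinas, with filled points where the second difference was called. All points lie left of 0, and Spc25 (2.57 and 2.37) is the highest in both panels.

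The size of the fall did not differ detectably between genotypes. For the change from P0 to P7 the Plk3-KO minus WT difference was called for 0 of 49 genes, and for 0.00% of all probe sets, and 0 of the 49 reached an unadjusted p under 0.05 in limma. Its median was -0.27. For the change from P7 to the adult 0 genes were called (0.00% of all probe sets), with Mki67 (1 gene) at an unadjusted p under 0.05, and for the change from P0 to the adult 0 were called (0.00%), with 5 at that level. These 5 were Cdc25b, Cdc25c, Mki67, Smc4 and Ncapg, named for their values.

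Within ages, genotypes were compared among genes with a mean above 7 in either genotype, 49 at P0, 31 at P7 and 13 in the adult. At each age 0 of these genes were called in limma, as were 0.00% of all probe sets tested, and the methods' t-test after adjustment called 0 as well. Those tested in limma included the Plk3 probe set, at 7.70 in adult Plk3-KO and 5.20 in adult WT retinas. The lack of a call with 3 arrays per group therefore does not show equal levels. At an unadjusted p under 0.05 in limma there were 0 at P0, 0 at P7 and 3 in the adult. These 3 were Cdc25b, with 7.40 ± 0.44 (SD, n = 3) in WT and 6.40 ± 0.36 in Plk3-KO retinas, Spc25, with 13.57 ± 0.32 and 13.00 ± 0.17, and Smc4, with 10.57 ± 0.06 and 11.03 ± 0.21. The arrays of both genotypes did not overlap for Cdc25b and Smc4 in the adult (2 of 13 genes, beside 5.48% of all probe sets), for Pttg1 at P7 (1 of 31, beside 1.92%) and for 0 of 49 at P0 (beside 3.49%). Without the 4 arrays that stand apart, Smc4 was called in the adult, at a difference of 0.60 (adjusted p = 0.0447, limma). That set lacks adult WT 3 and adult Plk3-KO 3, and so compares 10.6 and 10.5 in WT with 11.2 and 11.1 in Plk3-KO retinas. It was chosen after the data were seen.

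At P7 the Plk3-KO mean was below the WT mean in 44 of the 49 genes, with a median difference of -0.30, beside 0 over all probe sets. Because the genes move together from array to array, their shared direction rests on 3 arrays against 3. Without the 4 arrays that stand apart the median was -0.25.

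Plk3 lies on chromosome 4 (chr4:117128655-117133963, GRCm38.p6), as do 5 of the 49 genes. Kif2c, a microtubule depolymerase, starts 0.031 Mb from it, Cdc20 1.30 Mb, Cdca8 7.79 Mb, Smc2 64.7 Mb and Melk 72.8 Mb. The Plk3-KO minus WT difference of Kif2c was -0.10 at P0, -0.17 at P7 and -0.77 in the adult, where both means lay under 7. That of Cdc20 was 0.13, -0.43 and 0.00, that of Cdca8 0.03, -0.27 and -0.10, that of Smc2 -0.03, -0.07 and 0.27, and that of Melk -0.13, -0.40 and 1.10. Both means lay under 7 also for Kif2c and Melk at P7 and for Cdca8 and Melk in the adult. Differences between means under 7 were not tested. None of those tested was called, and these differences lie within the range of the other 44 genes.

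**Figure D3:**
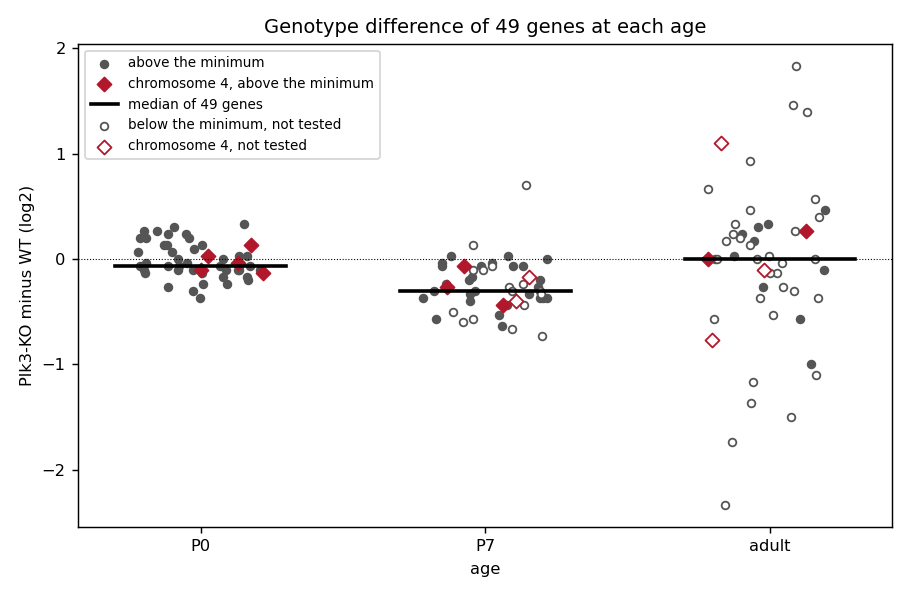
Plk3-KO minus WT difference (y axis, log2) of each of the 49 genes at P0, P7 and adult (x axis), with red diamonds for the 5 genes on chromosome 4, open symbols for genes below the minimum of 7 and a bar at the median. The medians are -0.07 at P0, -0.30 at P7 and 0 in the adult, and the open symbols of the adult spread the most.

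The spread between replicate arrays grew with age, for these genes and over all probe sets. The median SD within groups, pooled over genotypes, of the 49 genes was 0.196 at P0, 0.455 at P7 and 0.729 in the adult, beside 0.379, 0.551 and 0.701 over all probe sets. The SD was larger at P7 than at P0 for 42 of 49 genes, a count that was not made over all probe sets. At P0 the highest SD was that of Pttg1 (0.867), and at P7 that of Ndc80 (2.11), a gene under 7 there.

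At P7 a single array of each genotype gave higher values than its replicates for most of the genes. The mean over the 49 genes was 7.62, 7.42 and 8.20 on the WT arrays and 7.30, 7.92 and 7.23 on the Plk3-KO arrays, while at P0 the 6 arrays lay between 11.18 and 11.43. P7 WT array 3 gave the highest value of its group for 39 of 49 genes (79.6%, beside 28.4% of all probe sets), and P7 Plk3-KO array 2 for 38 (77.6%, beside 25.6%). In 29 of 49 genes (59.2%) both arrays lay above the other 4, as in 11.7% of all probe sets. Among probe sets with a P7 mean above 7 the shares were 62.1% of the 29 genes and 17.0% of all 20796. The pair was picked after the values were seen, and the shares are a description. The gap between the highest and the lowest of the 6 array means was 0.965, and it was 1.47 with each array centred on its median.

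The widest P7 ranges were those of Ndc80 (5.20), Dlgap5 (3.20) and Spc24 (3.10), all at low signal. Spc24, a partner of Spc25, stood at 5.1, 5.2 and 6.7 in WT and at 5.9, 6.5 and 3.6 in Plk3-KO retinas. At higher signal the pair stood apart most for Kif22 and Bub1b, in which the lower of the pair was 1.40 above the highest of the other 4 arrays, and for Ect2 (1.30). In contrast Ncapg, a condensin subunit, was lowest on P7 WT array 3 (3.9) and highest on P7 Plk3-KO array 2 (6.2).

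**Figure D4:**
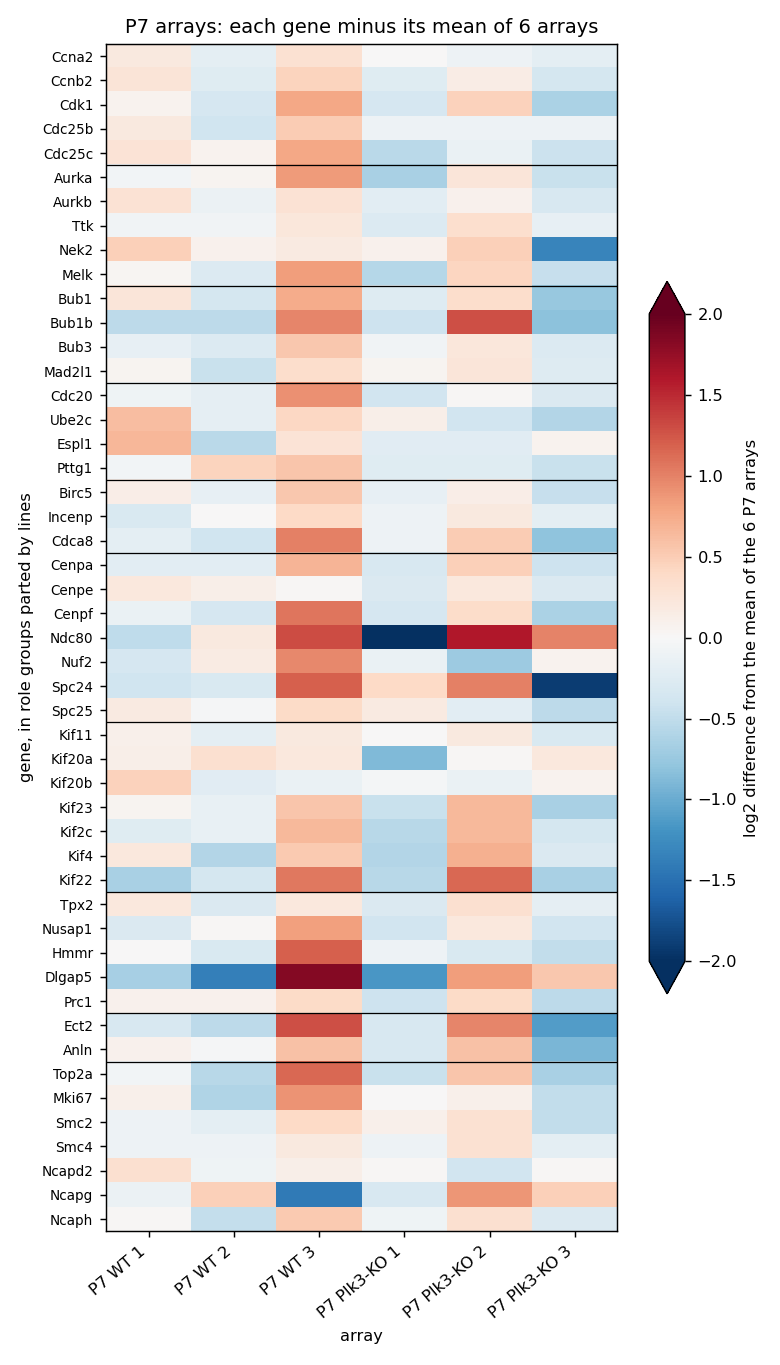
Each of the 49 genes (rows, in role groups parted by lines) on the 6 P7 arrays (columns), as the log2 difference from its mean over these arrays, red above and blue below, with the scale ending at 2 either way. P7 WT 3 and P7 Plk3-KO 2 are red in most rows, and Ncapg is blue on the former.

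Other features of these arrays moved with the level of the mitosis genes. The array median was 6.40 on both and 6.80 to 6.90 on the other 4 P7 arrays, the share of probe sets above 7 was 42.1% and 41.9% against 47.7% to 48.6%, and the gap between the 3′ and 5′ actin controls was 1.60 on both against 0.80 to 1.10. The 12 DNA replication genes averaged 9.38 on P7 WT array 3 and 8.96 on P7 Plk3-KO array 2, and 8.33 to 8.75 on the others. The rod list had 8 of 12 genes highest on the pair, with list means of 13.03 and 13.33 against 12.47 to 12.93, whereas the endothelial list had 4 of 6 lowest there, with means of 7.83 and 8.20 against 8.45 to 9.0, and the bipolar list 3 of 5, with means of 9.64 and 9.56 against 9.98 to 10.26. Of 12 progenitor genes, both arrays lay above the other 4 in 3 and below them in 2. Of 24 other subunits of the anaphase-promoting complex and cohesin genes, they lay above in 10 and below in 5. Both arrays lay above the other 4 in 11.7% of all probe sets. They lay below the other 4 in 27.5% of all probe sets, and in 35.3% of those with a P7 mean above 7. The part of RNA quality, dissection or tissue makeup in the higher mitotic signals was not tested.

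Other genes of the pathway were read from lists that hold none of the 49. Of 60 other mitosis genes, 52 were called lower at P7 in WT retinas and 53 in Plk3-KO retinas, with medians of -2.92 and -3.25. Cks1b, the Cdk1-binding subunit, had P0, P7 and adult means of 13.53, 11.97 and 8.90 in WT retinas. Zwint, a kinetochore protein, had 7 probe sets, and only that of highest mean was read here. On it Zwint did not fall, with 12.70, 13.03 and 13.23 in WT retinas and 12.40, 13.13 and 13.07 in Plk3-KO retinas. Its rise to P7 by 0.73 in the mutant was called on that probe set (adjusted p = 0.027, limma). Plk1, the polo-like kinase of mitosis, had means of 10.10, 7.20 and 6.73 in WT retinas and is named here although its values had been seen.

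DNA replication genes fell beside the mitosis genes, with 10 of 12 called lower at P7 in each genotype and medians of -2.72 and -2.90. Pcna, the sliding clamp of DNA polymerase, had means of 14.30, 13.00 and 12.93 in WT retinas and Mcm7, of the replicative helicase, 13.03, 11.50 and 9.90. By contrast the other subunits of the anaphase-promoting complex and the cohesin genes had 2 of 24 called lower at P7 in each genotype, beside 4.31% of all probe sets in WT and 4.74% in Plk3-KO retinas, and medians of -0.18 and -0.30. These 2 were Esco2, which acetylates cohesin in S phase and fell by 5.80 in WT retinas, and Smc1a, a cohesin core subunit, which fell by 0.80. Anapc5 had WT means of 12.63, 12.37 and 11.67, and Stag2 of 12.50, 12.53 and 12.43.

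Markers of retinal cells moved at the same time. Of 12 progenitor genes, 10 were called lower at P7 in each genotype, with medians of -1.80 and -2.12, and Gas1 and Six3 had the highest means over the 18 arrays. All 12 rod genes, led by Nrl and Pdc, were called higher at P7, beside 5.08% of all probe sets in WT and 4.96% in Plk3-KO retinas, with medians of 4.52 and 4.70. The lens list had means of 3.13 to 13.62 on the P0 arrays and 5.77 to 12.03 on the adult arrays. The mean of the mitosis genes lay within 11.18 to 11.43 and 6.00 to 6.26 there. Over the astrocyte, amacrine and ganglion cell, Müller glia, microglia, pigment epithelium and red blood cell lists, the medians of the WT change to P7 lay between 0.27 and 1.70, and over the bipolar and endothelial lists it was 2.3. The lens list had a WT median of -4.0 with 0 of 6 genes called, and 2 of 6 called lower in Plk3-KO retinas.

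**Figure D5:**
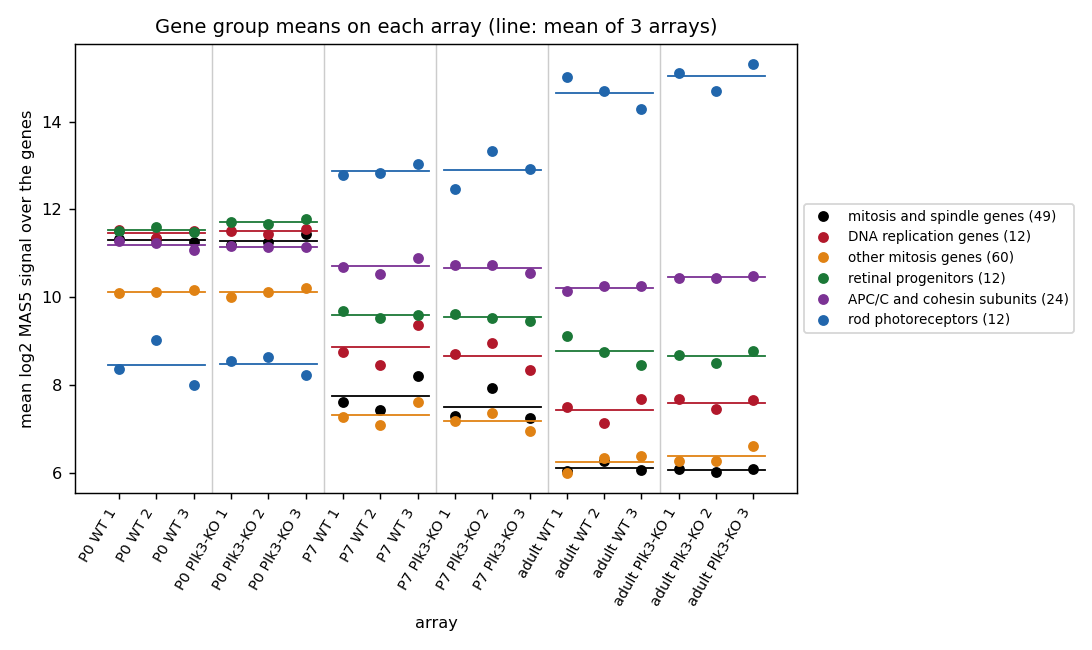
Mean log2 MAS5 signal over each gene list (y axis, number of genes in brackets) on the 18 arrays (x axis), with lines at the mean of the 3 arrays of a group. The mitosis and spindle genes fall from 11.18 to 11.43 at P0 to 7.23 to 8.20 at P7 and 6.00 to 6.26 in the adult, while the rod list rises.

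Outside these lists, the 10 genes whose pattern was most like the mean of the 49 over the 18 arrays were Trim59, Cmtm7, Tgif2, Hes6, Atad2, Csrp2, Clspn, Nrarp, Rad51ap1 and Ercc6l, with Pearson's r from 0.984 to 0.991. The arrays share their age, and this likeness is a description across 6 groups. Trim59 had means of 11.40, 8.33 and 6.77 in WT retinas at P0, P7 and adult, and Hes6 had 13.33, 11.23 and 9.97.

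The fall was also read on every probe set of the 49 genes. Of all 114, 113 had a lower mean at P7 than at P0 in WT retinas and 114 in Plk3-KO retinas. In each genotype 95 were called lower, beside 4.31% of all probe sets in WT and 4.74% in Plk3-KO retinas. Of the 100 with a P0 mean above 7 in either genotype, 100 were lower and 92 were called in each genotype. That filter uses the age at which these genes are high, and so favours a fall. Nek2 had 1 probe set, under 7 at P0, with a WT mean of 6.2 at P0 and 6.80 at P7, against WT differences of -4.0 to -2.03 on its other 3.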

How the data were processed

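Retinal RNA of WT and Plk3-KO mice at P0, P7 and adult was measured on 18 arrays, 3 per group, and groups were taken from the sample titles. The deposited values were made by the authors with MAS5 background adjustment and normalisation and a log2 transform, to 1 decimal (versions are not given in the sources used here), so that the log2 signals are already scaled and their low range is noisy. No depth applies to arrays, and their number limits the precision. Of 45101 probe sets, 64 controls were left out. Of the rest, 34945 had 1 symbol in the platform annotation, 932 several and 9160 none, and 34741 matched the GRCm38.p6 gene table by gene ID, which gave positions.

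One mean per group was fitted with limma 3.58.1 (R 4.3.3, statmod 1.5.0) and moderated with a trend, with 12 residual degrees of freedom and 5.21 prior degrees of freedom. Benjamini-Hochberg adjustment ran over all 45037 probe sets, or, between genotypes, over the probe sets with a mean above 7 in either genotype at that age, as in the study's methods, whose t-test was an alternative. The fit was tested on simulated data. Figures were drawn with matplotlib 3.10.9.

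The genes and lists were chosen with earlier results of these data known. Values on every array were given for the 2 genes of highest mean in each role group, the 3 largest and 3 smallest changes from P0 to P7 and the 3 widest ranges at P7, and from other lists the 2 genes of highest mean were named. Bub1b and single values of Mki67 and Ncapg were added after their values were seen. Values under 7 were raised to 7 where a bound is given. Other scalings, filters, array weights, a replicate block, all probe sets of a gene and leaving out each array were tried. A set without 4 arrays whose values stand apart over the whole array was added after the data were seen. Promoter sequences are from RefSeq.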

Additional observations from a re-analysis of the deposited data

How the results depend on the processing

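The fall from P0 to P7 kept its count within 46 to 49 of 49 genes in both genotypes under every alternative run, and none of the 2744 values recomputed for single genes turned its direction. Between 44 and 48 genes were called from P0 to adult. The step from P7 to adult was less stable. Its WT count of 20 became 33 with array weights, 12 with values under 7 set to 7 and 13 with the groups of the contrast alone, and the Plk3-KO count of 24 became 14 with arrays centred on their medians, 6 with values under 7 set to 7 and 5 with the groups of the contrast alone. Leaving out 1 array gave 18 to 27 in WT and 14 to 24 in Plk3-KO retinas. Centring moved the median of all probe sets from -0.10 to 0.27 for P0 to adult in WT retinas. Genotype and interaction counts were 0 under all alternatives but 1, in which 1 gene, Smc4, was called in the adult without the 4 arrays that stand apart. The spread of the P7 array means was 1.37 after quantile normalisation and 1.47 after centring. The causes were not tested.

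Small differences that were not called turned sign. For Pttg1 from P0 to adult in Plk3-KO retinas the difference was 0.17 with centred arrays, 0.0946 with array weights, 0.0167 without the 4 arrays and -0.57 to 0.23 leaving out 1 array, and that for WT was -0.82 to 0.0833 leaving out 1 array. For Spc25 at the same step it was 0.10 with centred arrays, 0.062 with array weights and -0.40 to 0.05 leaving out 1 array in the mutant, and -0.58 in WT retinas with all probe sets averaged. Between genotypes, all probe sets averaged gave 0.22 for Kif2c and 0.70 for Smc2 at P7, and array weights gave 0.28 for Cdca8 in the adult. Leaving out 1 array gave -0.58 to 0.17 for Cdca8, -0.53 to 0.12 for Kif2c and -0.23 to 0.17 for Smc2 at P7, -0.10 to 0.30 for Cdc20, -0.12 to 0.18 for Cdca8 and -0.13 to 0.05 for Smc2 at P0, and -0.32 to 0.0833 for Cdca8 in the adult.

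With the replicate number as a block, 47 and 47 genes were called from P0 to P7, 21 and 23 from P7 to adult and 46 and 46 from P0 to adult in WT and Plk3-KO retinas, and 0 between genotypes. Deviations of same-numbered arrays correlated at -0.0584 to 0.188 at P0, -0.61 to 0.379 at P7 and 0.0983 to 0.544 in the adult. Not every pair was over 0.1, so that the numbers were not taken to pair the arrays, and not every array correlated best with its own number. Signals under 7 limit the adult levels, and 3 arrays per group limit each comparison.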
